A study of Ovis aries with 8 samples.

Results

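The genes described here are 7 Ensembl sheep genes that stood lower in both miR-127 mimic libraries than in both control mimic libraries of ovine skeletal muscle satellite cells, out of 20921 genes in the count table. They were selected on that difference in CPM, so their levels in these 4 libraries are a description and carry no test. All 7 passed the filter on low counts, which left 16353 genes. Satellite cells, the resident stem cells of skeletal muscle, were grown as primary cells of the Suffolk x Texel genotype, and all 8 cultures were transfected at 60% confluence and harvested on day 4. Each of 4 groups held 2 libraries: control antagomiR, antagomiR-22-3p given at 500 nM, control mimic, and the miR-127 mimic given at 100 nM. The labels used here state no dose for the control oligonucleotides, do not say from how many animals the cells came, and name no batch. The p-values below therefore measure only the spread between these libraries, which may be technical.

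A microRNA is a short RNA that guides a silencing complex to messenger RNAs, mostly through pairing of its seed with sites in the 3' untranslated region, and paired messengers are translated less and often degraded. miR-127 comes from the imprinted DLK1-DIO3 region and is transcribed antisense to RTL1, a gene related to retrotransposons. A mimic is a synthetic duplex that supplies extra microRNA, whereas antagomiRs are chemically modified antisense oligonucleotides that block an endogenous one. The libraries were made from polyadenylated RNA, so they do not measure the mature microRNAs, and neither the uptake of the mimic nor the block of miR-22-3p can be read from them. The table of sheep RefSeq genes used for names matched 0 of the 20921 identifiers. The 7 genes are therefore given by identifier alone, their roles and any seed sites were not analysed here, and the cell type was not checked against its marker genes.

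The libraries held from 26637300 to 35843926 counts. Levels are given as CPM, the counts of a gene relative to the size of its library after scaling with TMM factors. These values depend on gene length, so they are compared between libraries of 1 gene and not between genes. For each gene below the values of the 2 libraries of a group are given in the order of their replicate numbers.

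ENSOARG00000018571 was nearly absent after the miR-127 mimic and highest after antagomiR-22-3p. It stood at 21.8 and 24.1 CPM in the control mimic libraries (578 and 782 counts) and at 0 and 1.41 CPM after the miR-127 mimic (0 and 36 counts). At the mean level of the control mimic, the 2 miR-127 mimic libraries would have held 742 and 587 counts. The 36 counts allow 0.985 to 1.95 CPM (95% exact Poisson interval). By the same interval the library without a count allows up to 0.114 CPM, which is above the floor of 3 counts, or 0.0927 CPM, taken below. Set against the control mimic mean of 22.9 ± 1.63 CPM (SD, n = 2), the gene was 16.3-fold lower in miR-127 mimic replicate 2. In replicate 1 it was 247-fold lower with the floor of 3 counts taken for that library. The upper end of the Poisson interval would give a smaller fold there, so 247-fold is not a lower bound. The 2 libraries given the mimic thus both lay far below the controls but differed from each other in how far.

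In the cells not given a mimic, ENSOARG00000018571 stood at 20.8 and 20.6 CPM with the control antagomiR and at 89.3 and 54.8 CPM with antagomiR-22-3p. The 4 control libraries lay within a narrow band from 20.6 to 24.1 CPM, and the antagomiR-22-3p libraries lay above all of them. The order of the group means was antagomiR-22-3p, control mimic, control antagomiR and miR-127 mimic. No neighbours in that order overlapped, although the lowest control mimic library was only 1.05-fold above the highest control antagomiR library.

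ENSOARG00000005767 had the next largest difference and also the fewest counts of the other 6 genes. It stood at 3.88 and 3.82 CPM in the control mimic (103 and 124 counts) and only 0.680 and 0.469 CPM after the miR-127 mimic (22 and 12 counts). Its mean was thus 6.70-fold lower in the treated cells (log2 fold change -2.72). Its Poisson intervals in the miR-127 mimic libraries, 0.426 to 1.03 and 0.242 to 0.819 CPM, lay below those of the control mimic libraries. Its control groups also lay apart. With the control antagomiR it stood at 7.49 and 10.7 CPM and with antagomiR-22-3p at 8.04 and 7.21 CPM, so that the control mimic lay 2.37-fold below the control antagomiR, while the 2 antagomiR-type groups overlapped.

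ENSOARG00000000794 formed 4 separate steps. It stood at 16.6 and 17.6 CPM in the control mimic and at 6.89 and 8.60 CPM after the miR-127 mimic, which is 2.21-fold lower in the mean (log2 fold change -1.14). The control antagomiR libraries lay higher, at 20.0 and 21.5 CPM, and the antagomiR-22-3p libraries higher again, at 31.3 and 27.7 CPM. No 2 of its 4 groups overlapped.

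ENSOARG00000009888 had the same order of groups with smaller steps. It stood at 45.9 and 45.7 CPM in the control mimic and at 31.7 and 31.1 CPM after the miR-127 mimic, a mean 1.46-fold lower (log2 fold change -0.54). This was the smallest difference of the 7 genes, but the 2 libraries of each of these groups agreed to within 1.02-fold. The control antagomiR libraries lay at 47.7 and 47.3 CPM and the antagomiR-22-3p libraries at 49.1 and 57.2 CPM. Its 4 groups did not overlap, yet the control mimic and control antagomiR libraries lay only 1.03-fold apart where they came closest.

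ENSOARG00000015604 had 1 low group, the miR-127 mimic, and 3 groups that overlapped. It stood at 27.7 and 30.1 CPM in the control mimic and at 17.1 CPM in each of the 2 miR-127 mimic libraries (552 and 438 counts). The mean was 1.69-fold lower, a log2 fold change of -0.76. The control antagomiR libraries, at 32.2 and 27.4 CPM, and the antagomiR-22-3p libraries, at 33.0 and 27.9 CPM, overlapped with the control mimic and with each other.

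**Figure D1:**
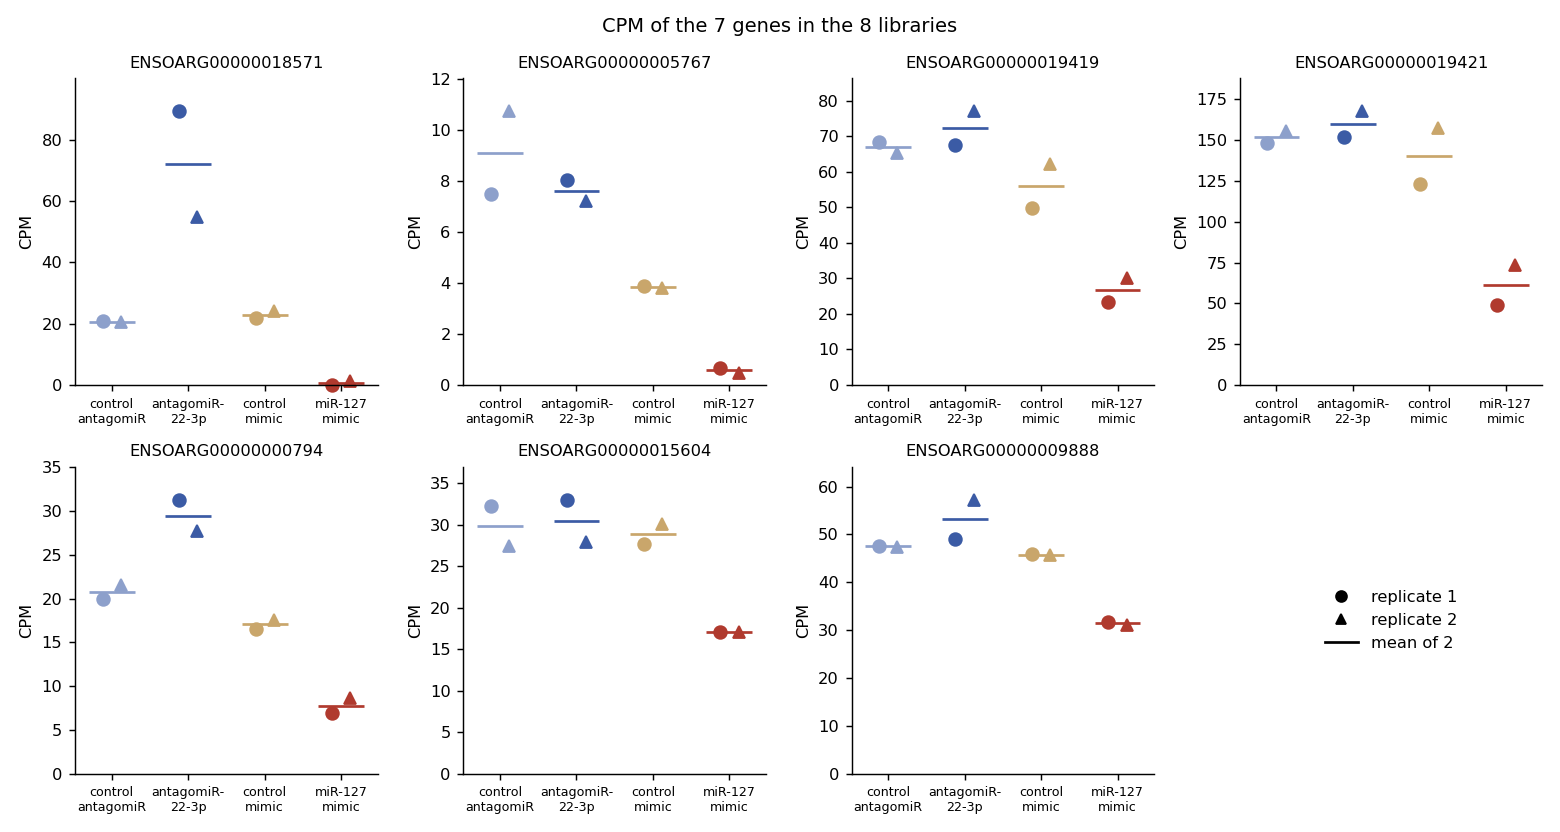
Level of each of the 7 genes in CPM (y axis, from 0, with its own scale in each panel) in the 4 groups (x axis); circles are replicate 1, triangles replicate 2 and lines the mean of the 2 libraries. In every panel the 2 miR-127 mimic libraries are the lowest of the 8, and in the panels of ENSOARG00000018571, ENSOARG00000000794 and ENSOARG00000009888 the 2 antagomiR-22-3p libraries are the highest.

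The remaining 2 genes followed each other closely. ENSOARG00000019419 stood at 49.7 and 62.1 CPM in the control mimic and at 23.5 and 30.1 CPM after the miR-127 mimic, a mean 2.09-fold lower (log2 fold change -1.07). ENSOARG00000019421 stood at 123 and 157 CPM in the control mimic and at 49.2 and 73.4 CPM after the miR-127 mimic, a mean 2.29-fold lower (log2 fold change -1.20). In both genes replicate 2 lay above replicate 1 in both of these groups. In the control antagomiR, ENSOARG00000019419 stood at 68.4 and 65.3 CPM and ENSOARG00000019421 at 148 and 155 CPM. After antagomiR-22-3p the former stood at 67.5 and 77.0 CPM and the latter at 152 and 168 CPM. Both antagomiR-type groups overlapped in either gene, and for ENSOARG00000019421 the control mimic overlapped with them as well.

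Counts of ENSOARG00000019421 were between 2.09 and 2.53 times those of ENSOARG00000019419 in the 8 libraries. Across these libraries the log2 CPM of the 2 genes correlated at r = 0.987 (rho = 0.762), and at r = 0.910 over the 6 libraries without the miR-127 mimic. Their counts were not copies of each other: no gene in the table had counts within 2% of those of any of the 7 genes in all 8 libraries, and none did within 5%. Whether the 2 genes share some reads was not tested.

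**Figure D2:**
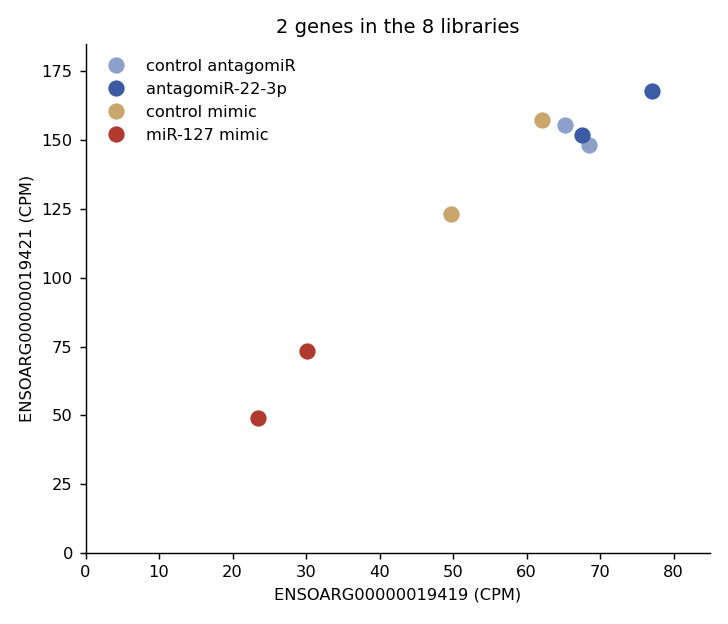
CPM of ENSOARG00000019421 (y axis) against CPM of ENSOARG00000019419 (x axis), 1 point per library, coloured by group. The miR-127 mimic libraries lie at the lower left, at 23.5 and 30.1 CPM on the x axis, and the other 6 libraries lie at 49.7 CPM or more.

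The pattern that defined the 7 genes was common. In all, 2888 of 16353 genes (17.7%) stood lower in both miR-127 mimic libraries than in both control mimic libraries, and 7 of 7 do so here by choice. Genes lay close to this limit on both sides, with no gap. The nearest gene inside it had a lowest control mimic value 1.000096 times its highest miR-127 mimic value, and the nearest outside it had 0.999986 times. The 7 genes lay well inside it. For them this ratio ran from 1.44 in ENSOARG00000009888 to 15.5 in ENSOARG00000018571. Among the other genes 248 had a ratio of 1.44 or more, of which 29 had an average level of at least 2 log2 CPM, the range in which all 7 genes lay. By the size of the log2 fold change, ENSOARG00000018571 ranked 35 from the lowest of 16353 genes, ENSOARG00000005767 ranked 71 and ENSOARG00000009888 ranked 1016. The 34 genes lower than ENSOARG00000018571 all had an average level under 2 log2 CPM, as did the 69 other genes lower than ENSOARG00000005767. Of the 1009 other genes lower than ENSOARG00000009888, 797 had such low levels and 212 did not. The average is over all 8 libraries, and for ENSOARG00000005767 it was 2.43 log2 CPM, just above that cut. This gene stood at 3.88 CPM or less in the libraries of this comparison and at 7.21 CPM or more in the antagomiR-type libraries. The ranks rest on the difference that chose the 7 genes, so they do not set them apart. In this comparison edgeR's quasi-likelihood test called 0% of the 16353 genes (1143 had an unadjusted p under 0.05), and DESeq2 called 43. Over how many genes DESeq2 adjusted is not reported here, so its count may not be like that of edgeR.

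**Figure D3:**
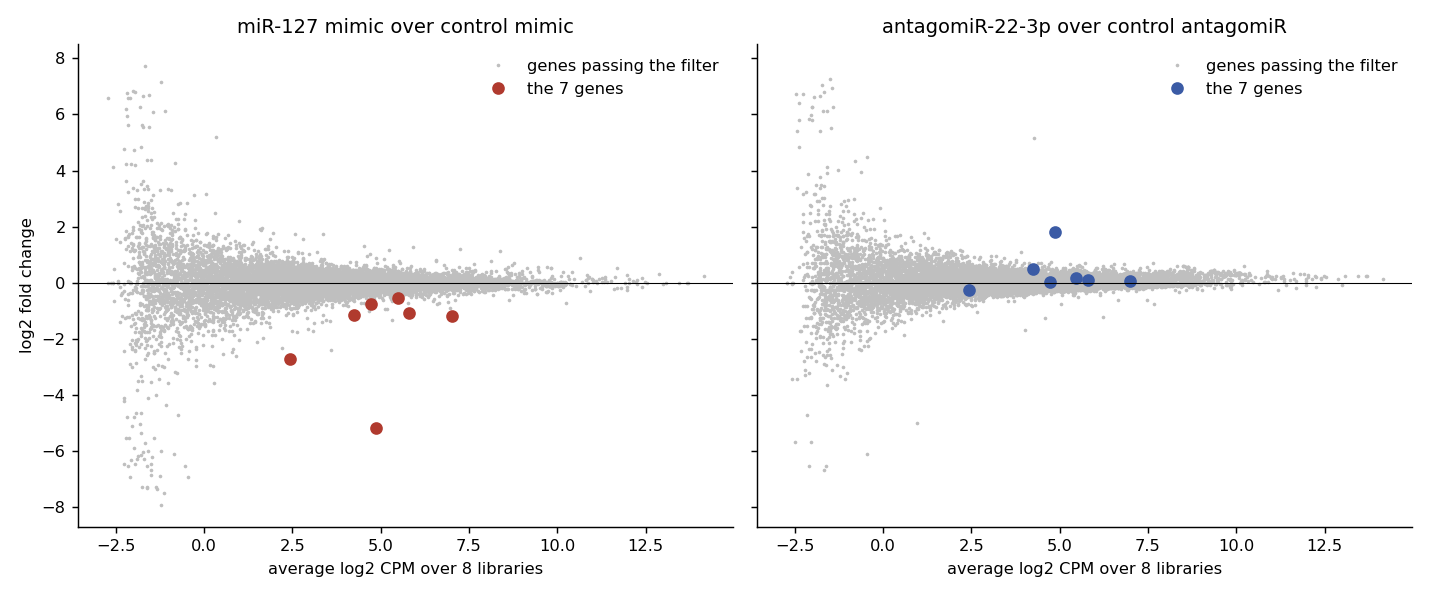
Log2 fold change (y axis) against average log2 CPM over the 8 libraries (x axis) for the 16353 genes that passed the filter (grey) and the 7 genes (coloured), for the miR-127 mimic over its control (left) and antagomiR-22-3p over its control (right). The 7 genes lie between -5.16 and -0.54 on the left, where they were chosen, and between -0.26 and 1.80 on the right.

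The antagomiR comparison shares no library with the one that chose the genes. The genes were, however, chosen with earlier results of these data known, so its log2 fold changes cannot be taken as independent of that choice. The spread in the model is estimated from all 8 libraries, including the 4 on which the genes were selected. Fitted to only the 4 libraries compared, the adjusted p by edgeR lay between 0.39 (ENSOARG00000018571) and 0.99 for the 7 genes. None of the 7 was called between antagomiR-22-3p and control antagomiR (0 of 7, against 0% of 16353 genes by the quasi-likelihood test of edgeR, with 2 libraries per group). At an unadjusted p under 0.05, 2 of the 7 genes differed, both higher after antagomiR-22-3p, against 5.04% of all genes (824) in either direction and 3.97% in the higher one. DESeq2 called 66 genes in this comparison but gave an adjusted p for 0 of the 7, so it could call none of them. Its adjustment thus left out genes that edgeR included among the 16353, and the 2 counts of called genes are not alike. The median log2 fold change of the 7 genes was 0.11, beside 0.0019 over all genes, and 6 of the 7 were positive, beside 50.4% of all genes. Scaled by library totals alone, 4 of the 7 were positive beside 36.2% of all genes, and 6 of the 7 lay above the median of all genes as before. In 3 of the 7 both antagomiR-22-3p libraries lay above both control antagomiR libraries, against 18.4% of all genes and 15.8% of the 2888 genes that met the rule.

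ENSOARG00000018571 had the largest difference of the 7 in this comparison. Its mean was 20.7 ± 0.109 CPM with the control antagomiR and 72.0 ± 24.4 CPM with antagomiR-22-3p (SD, n = 2), 3.48-fold higher. The log2 fold change was 1.80 (SE 0.42, 95% interval 0.86 to 2.74), with an adjusted p of 0.97 by edgeR's quasi-likelihood test. The 2 antagomiR-22-3p libraries themselves differed 1.63-fold. In this model the spread of a gene is estimated from all 4 groups, and the miR-127 mimic libraries, with 0 and 36 counts, enter that estimate. Fitted to only the 4 libraries compared, without any miR-127 mimic library, the adjusted p by edgeR was 0.39. The log2 fold change lay between 1.41 and 2.12 in the other settings run. DESeq2 gave an unadjusted p of 0.27 and no adjusted p for this gene.

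ENSOARG00000000794 stood at 20.8 ± 1.08 CPM with the control antagomiR and 29.5 ± 2.51 CPM with antagomiR-22-3p, 1.42-fold higher. The log2 fold change was 0.51 (SE 0.14, 95% interval 0.18 to 0.83), with an adjusted p of 0.97 by edgeR. It stayed positive in every setting run, from 0.42 to 0.60, with adjusted p from 0.28 to 1 by edgeR.

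For the other 5 genes the 95% interval of the difference included 0. ENSOARG00000009888 had a log2 fold change of 0.16 (interval -0.060 to 0.38) although its groups did not overlap. ENSOARG00000019419 had 0.11 (-0.19 to 0.42), ENSOARG00000019421 had 0.072 (-0.30 to 0.44) and ENSOARG00000015604 had 0.030 (-0.26 to 0.32). ENSOARG00000005767 had -0.26 (-0.84 to 0.32), the widest interval of these 5 genes. Their adjusted p by edgeR lay between 0.98 and 1.00. The intervals leave room for differences in either direction, of up to 1.36-fold higher in ENSOARG00000019421 for example.

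**Figure D4:**
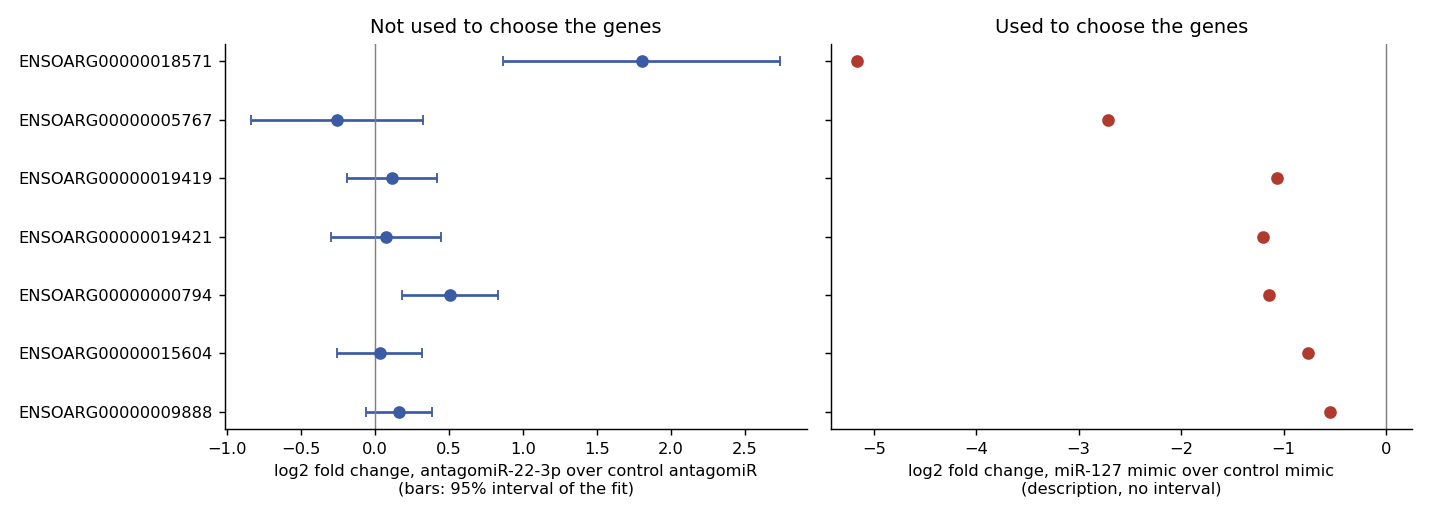
Log2 fold change of the 7 genes for antagomiR-22-3p over control antagomiR (left, points with 95% intervals) and for the miR-127 mimic over control mimic (right, points without interval because this comparison chose the genes); the 2 x axes differ in scale. On the left the intervals of ENSOARG00000018571 and ENSOARG00000000794 lie above 0 before adjustment, and the other 5 include 0.

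The order of all 4 groups was then set out for the 7 genes. In all 7 the miR-127 mimic libraries were the lowest 2 of the 8 libraries. Of all 16353 genes this held for 7.19%, and of the 2888 genes that met the rule for 40.7%. In 3 of the 7 (ENSOARG00000018571, ENSOARG00000000794 and ENSOARG00000009888) the antagomiR-22-3p libraries were at the same time the highest 2, as in 0.587% of all genes and 3.32% of those that met the rule. These shares are not matched to the 7 genes in the size of the drop. The genes that met the rule include ratios down to 1.000096, while the 7 had 1.44 or more. A larger drop makes the lowest 2 places more likely, so the contrast with these shares follows in part from the choice. Taken alone, antagomiR-22-3p libraries were the highest 2 in 3.03% of all genes, and 2.79% were lower after the mimic and higher after the antagomiR, each without overlap. Against the antagomiR-22-3p libraries, the miR-127 mimic libraries were lower without overlap in all 7 genes, beside 23% of all genes. For the 7 genes this follows from the miR-127 mimic libraries being the lowest 2 of the 8 and is no separate result. The differences there ran from a log2 fold change of -0.76 in ENSOARG00000009888 to -3.70 in ENSOARG00000005767, with a larger one in ENSOARG00000018571. This comparison shares the miR-127 mimic libraries with the rule, so these values are given without a test. It also sets a mimic against an antagomiR given at another dose, and the order of all 4 groups spans both types of oligonucleotide. Between the control groups alone, the log2 fold change of control mimic over control antagomiR was -1.24 for ENSOARG00000005767. For the other genes it lay between -0.28 and 0.15. How much of these differences or of the order goes with type or dose was not tested.

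Between the 2 control groups the means of most of the 7 genes lay close together. The 2 groups were not alike over all genes: edgeR's quasi-likelihood test called 722 of 16353 genes (4.42%) between them. It called 0 for either treatment against its own control. The control mimic stood lower than the control antagomiR in 6 of the 7 means and in 4 without overlap, beside 26.6% of all genes, and higher without overlap in ENSOARG00000018571, beside 26.2%. The log2 fold changes were -1.24 for ENSOARG00000005767, -0.28 for ENSOARG00000000794, -0.26 for ENSOARG00000019419, and between -0.11 and 0.15 for the other 4. Scaling by library totals alone moved the median of all genes in this comparison from -0.0091 to -0.17 on the log2 scale and ENSOARG00000018571 from 0.15 to -0.014, in step with that shift: relative to the median it stood 0.16 higher under either scaling. The control mimic libraries are shared with the rule, and no test of the 7 genes is given here either.

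The spread between the 2 libraries of a group differed among the genes. In the miR-127 mimic, the 2 values of ENSOARG00000015604 were 1.003-fold apart and those of ENSOARG00000009888 1.02-fold, while ENSOARG00000019421 differed 1.49-fold, ENSOARG00000005767 1.45-fold, ENSOARG00000019419 1.28-fold and ENSOARG00000000794 1.25-fold. ENSOARG00000018571, with 0 and 36 counts, had the widest spread of the 7. Over all genes the median log2 difference between replicates was 0.21 in the miR-127 mimic and between 0.16 and 0.18 in the other groups, the miR-127 mimic libraries being the least alike by this measure.

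Across the 8 libraries the 21 pairs among the 7 genes correlated at r = 0.852 to 0.987 in log2 CPM (median 0.933), which the rule largely fixes. Without the miR-127 mimic libraries, over the 6 libraries left, of which the 2 control mimic libraries were also used by the rule, the same pairs ran from -0.159 to 0.910 with a median of 0.488. ENSOARG00000018571 and ENSOARG00000000794 remained alike there (r = 0.901), and ENSOARG00000015604 with ENSOARG00000009888 gave the one negative value. The points share the same libraries and their depth, and these values are descriptions.

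For each of the 7 genes the gene with the most similar pattern was taken as the one with the highest Pearson correlation of log2 CPM over the 8 libraries, among the 16353 genes. A shared order of groups, with a low level after the miR-127 mimic, follows largely from that choice and is no separate result. ENSOARG00000019419 and ENSOARG00000019421 were each other's closest gene. ENSOARG00000000794 was closest to ENSOARG00000000514 (r = 0.997, rho = 1), which stood at 8.55 ± 0.102 CPM in the control antagomiR, 10.7 ± 0.308 CPM with antagomiR-22-3p, 7.89 ± 0.0782 CPM with the control mimic and 5.17 ± 0.586 CPM with the miR-127 mimic (SD, n = 2), the same order of groups with smaller steps. ENSOARG00000018571 was closest to ENSOARG00000010885 (r = 0.990, rho = 0.976), whose range was far narrower, from 75.9 CPM in a miR-127 mimic library to 101 CPM in an antagomiR-22-3p library. This correlation compares the shape of a pattern and not its size. It was 0.895 when scaled by library totals, and 36 genes correlated with ENSOARG00000018571 at 0.95 or more, so that the closest gene is 1 of many. For the rest of the 7 genes, 10 to 23 genes reached 0.95.

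ENSOARG00000005767 was closest to ENSOARG00000019255 (r = 0.992, rho = 0.929), a gene with few counts. That gene had 28 and 34 counts in the control antagomiR, 38 and 40 in antagomiR-22-3p, 14 and 14 in the control mimic and 0 in both miR-127 mimic libraries. It thus had the same low control mimic level as ENSOARG00000005767 beside the antagomiR-type libraries. ENSOARG00000009888 was closest to ENSOARG00000013889 (r = 0.976, rho = 0.881), with 5.95 and 7.08 CPM in the control mimic and 1.95 and 2.27 CPM after the miR-127 mimic. ENSOARG00000015604 was closest to ENSOARG00000015886 (r = 0.979, rho = 0.810), which stood at 21.9 CPM or more in both control mimic libraries and at 18.3 and 17.2 CPM in the miR-127 mimic.

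Odd counts were fewer than even ones: 18 of the 56 counts of the 7 genes were odd. Of all counts above 100 and up to 6100 in a library, 31.4% to 34.1% were odd. Of those from 1 to 100, where some of the 56 counts lie, 11.9% to 15.6% were. ENSOARG00000018571 had no odd count in any library, which was also true of 24.7% of the 12697 genes with at least 100 counts in 7 or more libraries. It is not among those genes, since its miR-127 mimic libraries held 0 and 36 counts, so the comparison is not like for like. The Poisson intervals and floors above treat each count as an independent read and cover counting error only. If the shortage of odd counts means that counts are not independent, the intervals are too narrow, which was not tested.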

How the data were processed

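RNA of 8 cultures was measured by poly(A)-selected sequencing. A single table of raw, unnormalized read counts, 1 column per library and 1 row per Ensembl gene, is what the authors deposited. Per the submitters' processing notes, the tools were edgeR 3.34.1, featureCounts 2.0.2 with Subread, RSEM 1.3.3, Trim Galore 0.6.5 and FastQC 0.11.8, with no role given; build, annotation, strandedness and handling of multi-mapped reads were not given in the sources used here, which leaves overlapping genes uncertain. Both miR-127 mimic samples carry 1 description, and their titles' experiment numbers tied them to columns.

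The analysis used edgeR 4.0.16 in R 4.3.3: expression filter (minimum count 10, minimum total 15), TMM factors, and the quasi-likelihood F test in 1 model of 4 group means (4 residual and 6.29 prior degrees of freedom), two-sided, with Benjamini-Hochberg adjustment over 16353 genes and calls at 0.05. The SE is the log2 fold change over the square root of its F. Correlations used log2 CPM with a prior count of 2. DESeq2 1.42.0 was an alternative. The procedure was run on counts simulated from its own fitted spread and had to recover the fold changes set there. No check of its p-values or intervals is reported here. The 7 genes, the tests and the rule for the closest genes (the highest correlation for each of the 7) were chosen with earlier results of these data known. A marker list planned for the cell type needed gene symbols and was not applied. The counts of a library limit its precision: 3 counts correspond to 0.0835 to 0.117 CPM.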

Additional observations from a re-analysis of the deposited data

Results flagged for a closer look

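In 3 of the 7 genes the miR-127 mimic libraries all lay below their controls and the antagomiR-22-3p libraries all above theirs, as in 2.79% of all genes. The log2 fold change in the antagomiR comparison exceeded that in the mimic comparison by 6.96 for ENSOARG00000018571, 1.65 for ENSOARG00000000794 and 0.70 for ENSOARG00000009888. The first rests on few counts: it was 5.82 without miR-127 mimic replicate 1 and could not be given without replicate 2. These differences were not tested, because the mimic comparison chose the genes. Of the 2888 genes lower after the miR-127 mimic without overlap, 15.8% were higher after antagomiR-22-3p without overlap.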

How the results depend on the processing

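Each group has 2 libraries, so leaving 1 out leaves a lone library whose spread is taken from the other groups. No member was called in the antagomiR comparison under any of the 14 other edgeR settings. DESeq2 gave 0 of the 7 an adjusted p and found 1 at an unadjusted p under 0.05 instead of 2. Without miR-127 mimic replicate 2 the remaining library has no count of ENSOARG00000018571 and its fold in the mimic comparison could not be given. In the antagomiR comparison small differences changed sign: ENSOARG00000005767 was 0.025 without control antagomiR replicate 2 (-0.49 to 0.025 without 1 library), ENSOARG00000019421 was -0.00090 and ENSOARG00000015604 -0.043 with library totals, which moved the median of all genes to -0.071 and left both genes above it. ENSOARG00000015604 was -0.081 without control antagomiR replicate 2 and -0.095 without antagomiR-22-3p replicate 1 (-0.095 to 0.16 without 1 library).

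Counts of called genes moved more. The DESeq2 count for antagomiR-22-3p against its control was adjusted over fewer than the 16353 genes. For the other DESeq2 counts the number of genes adjusted over is not reported here. For antagomiR-22-3p against its control the count was 0, and it was 1 with library totals, without an expression filter or with only the 4 libraries compared, 66 by DESeq2, and 0 to 2 without 1 library. For the miR-127 mimic against its control it was 0, and 17 with library totals, 6 without a filter, 43 by DESeq2, 1 with only the 4 libraries compared, and 0 to 61 without 1 library, with 61 without miR-127 mimic replicate 2. Between the controls it was 722, and 1189 by DESeq2, 1092 with only 4 libraries, and 2 to 964 without 1 library, with 2 without control mimic replicate 2. For the miR-127 mimic against antagomiR-22-3p it was 692, and 1265 by DESeq2, 205 with only 4 libraries and 162 to 752 without 1 library. The experiment number as a block gave 2 calls for the miR-127 mimic and 0 for antagomiR-22-3p. The labels do not say whether libraries with the same experiment number were made together. Their deviations correlated at 0.173 between the antagomiR-type groups and 0.0411 between the mimic-type groups. These values do not settle whether the libraries are paired.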
